A study of Mus musculus with 18 samples.

Results

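Cytosolic ribosomal protein genes encode the proteins of the small (40S) and large (60S) subunits of the ribosome that translates messenger RNA in the cytosol. They were taken by symbol, as all entries that consist of Rpl or Rps, a number and at most 1 of the letters a, x, l and y, with or without a further number, together with Rplp0, Rplp1, Rplp2 and Rpsa. This gave 82 of the 14521 named genes in the deposited table, which held 14542 entries in all. Of the 82 genes, 77 were canonical ribosomal proteins (31 of the 40S subunit and 46 of the 60S subunit) and 5 were paralogs, namely Rpl3l, Rpl7l1, Rpl22l1, Rpl39l and Rps27l. Each canonical protein occupies a fixed place in the ribosome, and a growing cell makes them in amounts that follow the rate of ribosome assembly. Their messages carry a pyrimidine-rich start, the terminal oligopyrimidine tract, through which growth signals control their translation. In skin, the keratinocytes that divide at the base of the epidermis make many new ribosomes.

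Messenger RNA was sequenced from 18 skin samples of 6 female SKH-1E mice, an outbred hairless strain prone to skin tumours under ultraviolet light. The mice were littermates, all were irradiated chronically with ultraviolet light, and all samples share that exposure. From every animal came irradiated skin without a lesion (CHR), a papilloma (PAP), the benign form of epidermal outgrowth, and a squamous cell carcinoma of the skin (SCC), so that n = 6 in each group. The labels give no age, there was no unirradiated group, and the lesions were bulk tissue judged by histology to be mostly tumour. The mice are numbered 2, 3, 7, 8, 9 and 10 after their labels.

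Libraries held 15.4 to 21.0 M recovered reads, with a median of 18.9 M. Levels are given as normalised reads, which are reads recovered from the deposited values and divided by the size factor of the library. All 9 keratinocyte markers examined were detected in every group. Skeletal muscle markers were plentiful in CHR, where the sum of 18 of them came to between 421648 and 633929 normalised reads. Papillomas held 395 to 32194 and carcinomas 468 to 217344. The carcinoma of mouse 10 held 468 and the other 5 carcinomas held 87183 or more. Within the papillomas, that of mouse 2 held 32194 and the other 5 held at most 1505. In bulk tissue, fewer cells of a type and less RNA per cell cannot be told apart.

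The 82 genes together held a small part of the library, and a larger part in both lesions than in CHR. The share of reads on the 82 genes was 0.300% at the lowest, 0.330% at the median and 0.386% at the highest in CHR. In PAP it was 0.438%, 0.502% and 0.583% in the same order. In SCC it was 0.386%, 0.434% and 0.659%. All 6 papillomas lay above all 6 samples of CHR, whereas the carcinomas reached from the top of the CHR range to above the highest papilloma. Within mice, the share in PAP exceeded that in CHR by 0.166 percentage points ± 0.0395 (SD, n = 6), in 6 of 6 mice. The excess of SCC over CHR was 0.153 percentage points ± 0.120 (SD, n = 6), again in 6 of 6 mice. Between SCC and PAP the difference was -0.0125 percentage points ± 0.0854 (SD, n = 6), and SCC was the higher in 2 of 6 mice. These were mice 9 and 10, whose carcinomas gave 0.659% and 0.627%, and the other 4 carcinomas lay between 0.386% and 0.448%. Leaving the muscle markers out of the denominator changed the PAP minus CHR difference to 0.156 percentage points ± 0.0402 (SD, n = 6).

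**Figure D1:**
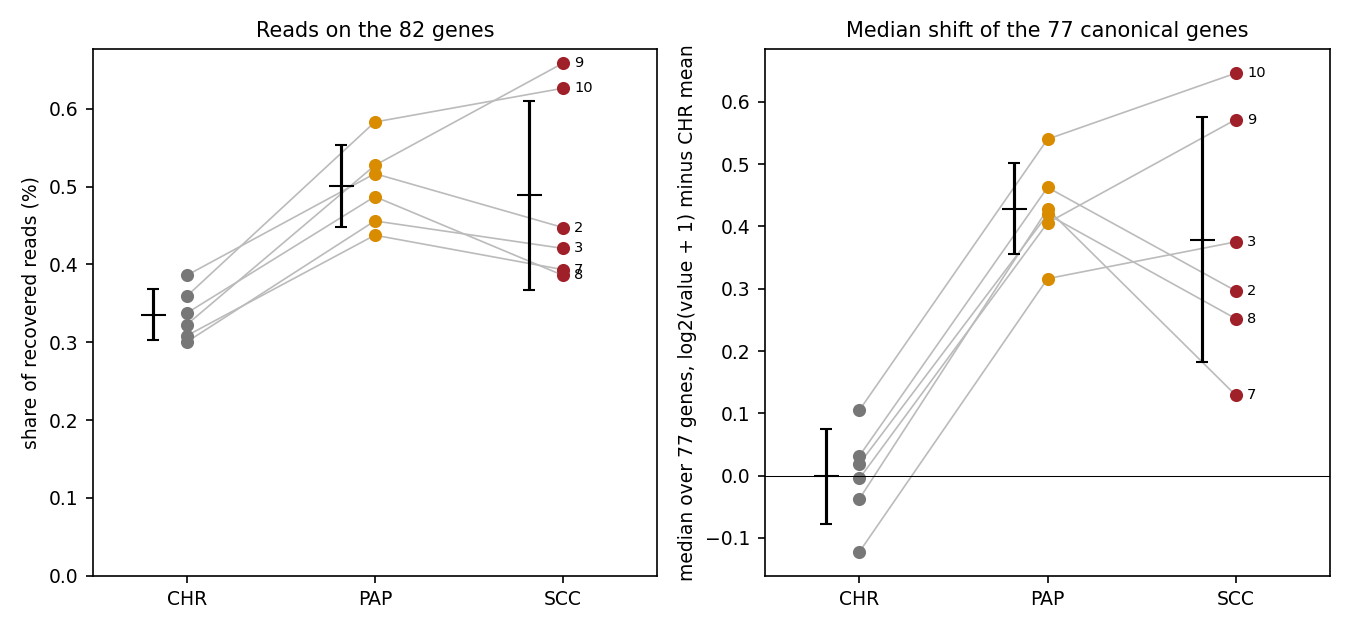
Left, the share of recovered reads on the 82 genes in each library (percent), and right, the median over the 77 canonical genes of log2(value + 1) minus the CHR mean of each gene. Points are the 18 libraries coloured by group, grey lines join the samples of 1 mouse (numbered at the right), and bars are the mean ± SD with n = 6; all 6 PAP lie above all 6 CHR in both panels, and the SCC of mice 9 and 10 lie above the other 4.

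A few members took a large part of these reads. Rpl8 had a mean of 13012 ± 1151 normalised reads in CHR, 21342 ± 3873 in PAP and 19864 ± 6688 in SCC (SD, n = 6 each). Rpl8 is a 60S protein close to the catalytic centre of the ribosome. With Rps3 and Rpl4 it took 40.3% to 42.4% of the reads on the 82 genes in CHR, 41.4% to 46.9% in PAP and 40.6% to 46.8% in SCC. The ranges of the 3 groups overlapped. Without these 3 genes, the share of reads on the other 79 was 0.177% to 0.222% in CHR and 0.256% to 0.311% in PAP, so that the groups again did not overlap. The mean over all libraries was 36.3 normalised reads for Rpl29, the fewest of the canonical genes, and 18072 for Rpl8, the most, with a median of 209 over the 77. Of the 77, 12 had a mean under 100 normalised reads, 43 had 100 to 500 and 22 had more. All 82 genes averaged at least 10 reads, so none was lost to a filter on low values.

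Ribosomal protein genes have left many processed copies in mammalian genomes, so the similarity of their transcripts to other loci was measured. Transcripts of GENCODE M21 (genome build GRCm38) were cut into windows of 76 bases, the length of the reads, and compared with the transcripts of all other annotated genes, pseudogenes included. A median of 51.9% of the windows of a member occurred in no other gene, against 100% for the other genes. Fewer than 50% of windows were unique in 39 of 82 members (47.6%) and in 406 of 13644 other genes (2.98%). At least 1 near-copy, an aligned stretch of 200 bases or more with at least 90% identity, was found for 77 of the 82. The median was 9.5 near-copies and the highest count was 93, for Rpl7a. Genes with 0 near-copies included Rpl8, Rps29, Rpl3l and Rpl39l, and Rps3, Rpl4 and Rps9 had 1.

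Level per length was compared with these counts as a description, since the ribosome holds its core proteins in equal numbers. Per kilobase of transcript, Rpl8 had the highest mean, 21237 normalised reads. Rpl4, Rpl22, Rps9 and Rps3 had 4946, 4509, 4316 and 4274 per kilobase, which lie close together. The 10 canonical genes with 0 or 1 near-copies had a median of 2736 per kilobase, the 26 with 2 to 9 had 271 and the 41 with 10 or more had 287. The low class was not uniform, as Rps29, with 0 near-copies, had 107 per kilobase. How reads that match several loci were counted is not given in the sources used here. The part of near-copies in these levels was not tested, and levels of genes with near-copies are uncertain. That uncertainty extends to the share of reads on the 82 genes and to the part of it taken by Rpl8, Rps3 and Rpl4.

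**Figure D2:**
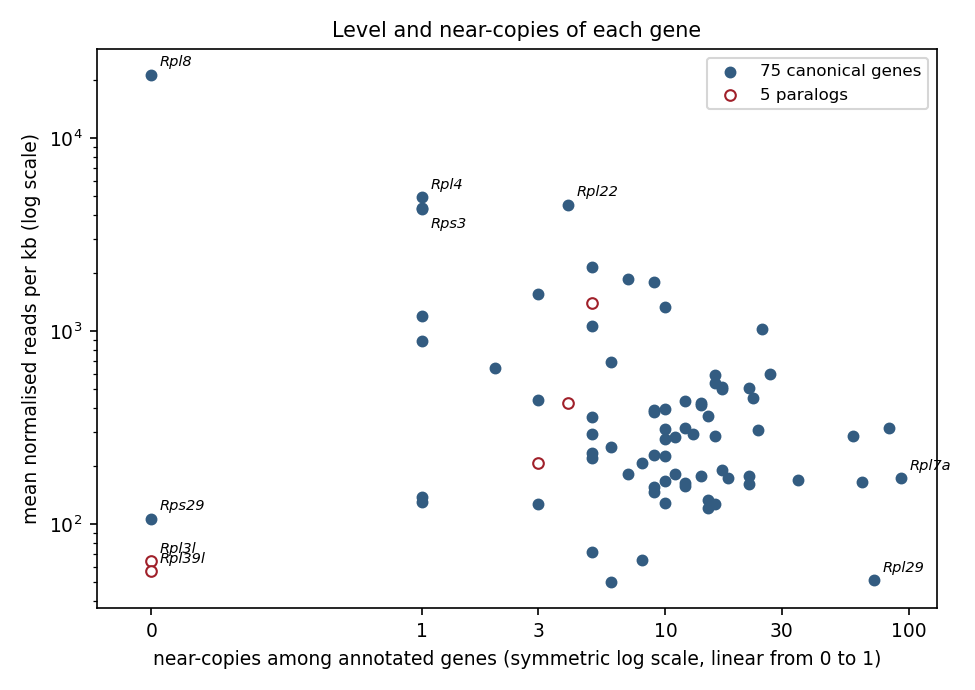
Mean normalised reads per kilobase of transcript (log scale) against the number of near-copies of 80 of the 82 genes. Filled points are 75 canonical genes and open points the 5 paralogs; Rpl8, with 0 near-copies, is the highest, and genes with 10 or more near-copies reach at most 1337 per kilobase.

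Most members rose from CHR to PAP. With limma on log2(value + 1) and Benjamini-Hochberg adjustment, 64 of 82 members were higher in PAP at an adjusted p under 0.05, where 22.8% of all genes tested were called higher (51.5% in either direction). Only 2 members were lower (background 28.7%), and both were paralogs. In the canonical set, 62 of 77 rose and 0 fell, with 24 of 31 for the 40S and 38 of 46 for the 60S. At an unadjusted p under 0.05, 68 of 77 differed (background 57.2%). The median log2 fold change was 0.44 over the 82 members and 0.00 over all genes tested. All 77 canonical genes had a fold change above 0, from 0.12 for Rpl15 to 0.78 for Rpl41. On the linear scale of normalised reads, the median ratio of PAP to CHR was 1.55 over the 77, and 80% of them lay between 1.29 and 1.74. Of the 82 members, 67 were higher in PAP in 6 of 6 mice (background 22.6%), and 48 had all 6 PAP above all 6 CHR (background 14.4%).

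**Figure D3:**
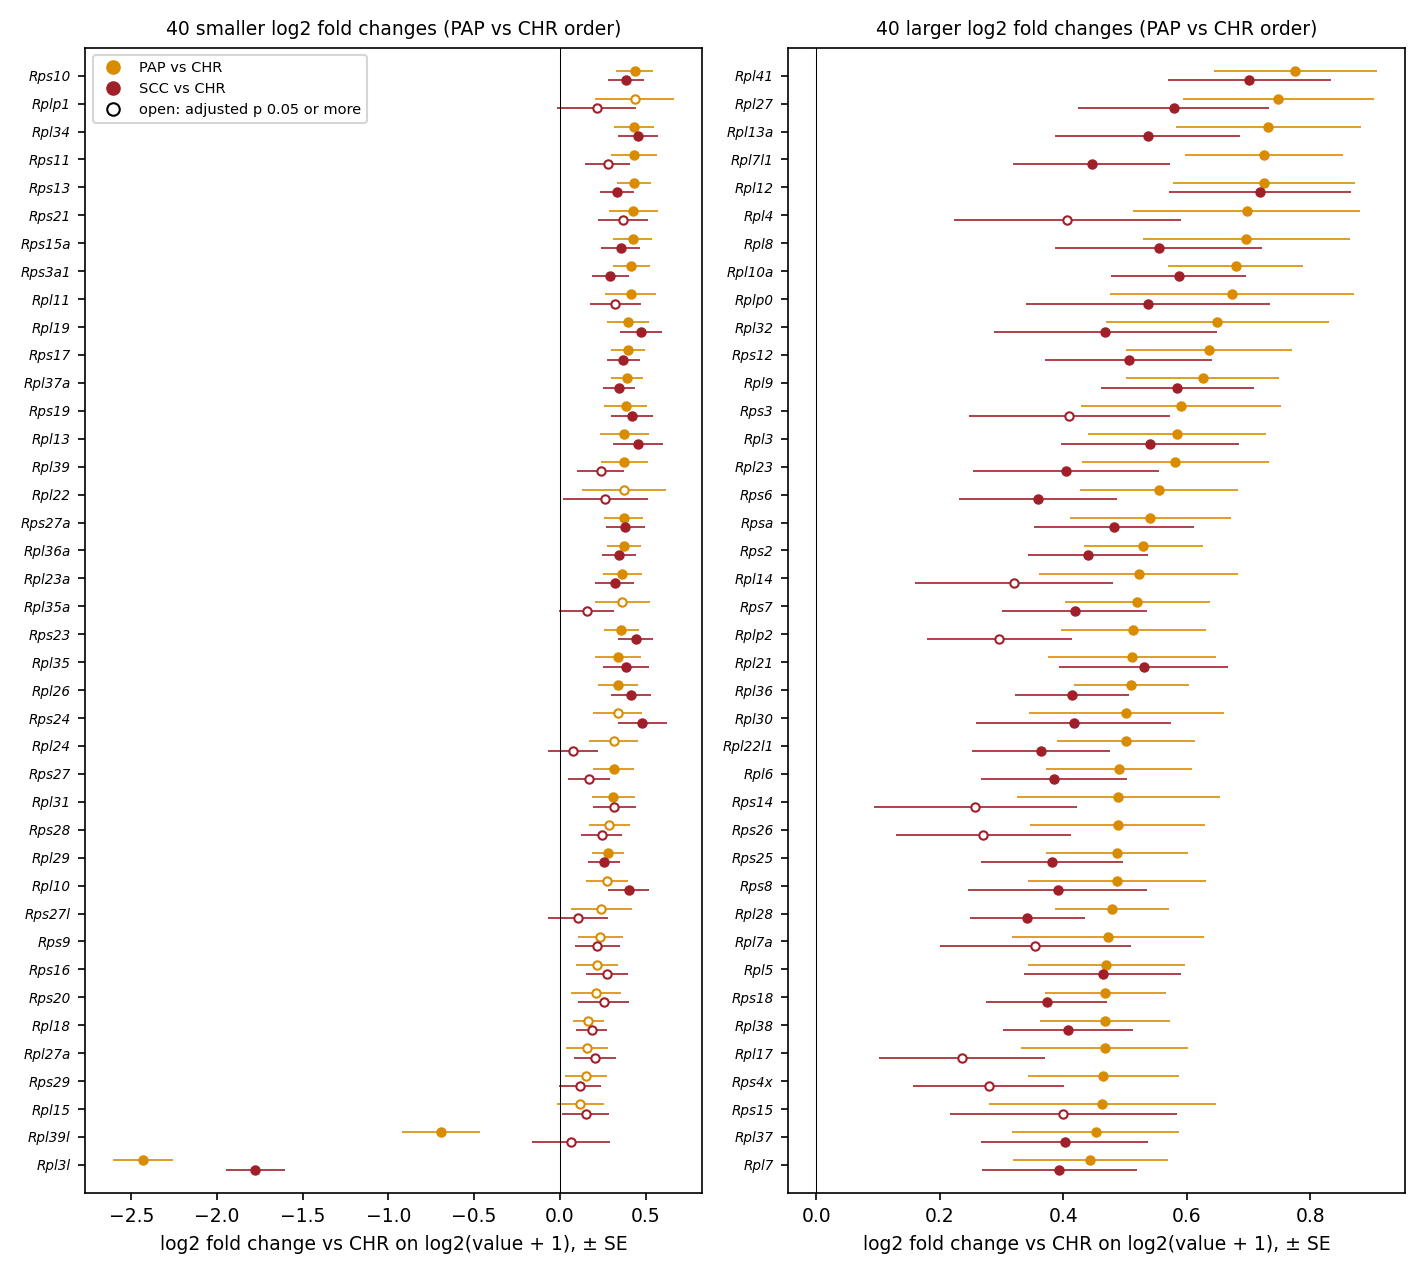
Log2 fold changes of 80 of the 82 genes against CHR on the log2(value + 1) scale, with bars of ± 1 SE, for PAP (orange) and SCC (red), ordered by the PAP value; the panels have different horizontal scales. Filled points passed an adjusted p of 0.05 in limma; the 75 canonical genes shown lie right of 0 in both comparisons, and Rpl3l lies far left in both.

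The largest increases in PAP were found in 60S proteins. Rpl41, the smallest protein of the ribosome, had 269, 300 and 376 normalised reads (lowest, median and highest) in CHR, 414, 591 and 735 in PAP and 380, 556 and 643 in SCC. Both lesions lay above CHR without overlap. Its log2 fold change was 0.78 ± 0.13 (SE, adjusted p = 0.0001) in PAP and 0.70 ± 0.13 (adjusted p = 0.00054) in SCC. Rpl27 had 154, 164 and 197 normalised reads in CHR, 242, 334 and 407 in PAP and 180, 283 and 490 in SCC. Its mean in PAP was 1.98 times that in CHR, the largest ratio of the set, and the carcinomas overlapped with both other groups. Rpl12, a protein of the stalk base where elongation factors bind, had 282, 346 and 381 normalised reads in CHR, 517, 567 and 970 in PAP and 467, 585 and 854 in SCC. Its log2 fold change was 0.72 ± 0.15 in either lesion (adjusted p = 0.00055 in PAP and 0.0012 in SCC), and neither lesion overlapped with CHR.

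Rpl13a, which also represses the translation of inflammatory messages when released from the ribosome, had 1431, 1552 and 1954 normalised reads in CHR and 2333, 2637 and 3235 in PAP. The papillomas lay above CHR without overlap, and the log2 fold change was 0.73 ± 0.15 (adjusted p = 0.00057). In SCC it ranged from 1728 to 3331 and overlapped with both other groups. Rpl10a and Rpl9 were among the largest increases in SCC, with log2 fold changes of 0.59 ± 0.11 (adjusted p = 0.00051) and 0.58 ± 0.12 (adjusted p = 0.0015). Rpl10a had 284 to 401 normalised reads in CHR and 454 to 650 in SCC, and Rpl9 had 270 to 332 in CHR and 386 to 629 in SCC. Neither pair of ranges overlapped.

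At the other end, the smallest canonical increases that passed the test in PAP were those of Rpl29, Rps27 and Rpl31. Rpl29 had 19.5, 22.8 and 36.5 normalised reads in CHR and 32.2, 43.5 and 48.4 in PAP, with a log2 fold change of 0.28 ± 0.09 (adjusted p = 0.019). The ranges overlapped, and its ratio of means was 1.58, because the deposited scale compresses low levels. Rps27 and Rpl31 had log2 fold changes of 0.31 ± 0.12 (adjusted p = 0.039) and 0.31 ± 0.13 (adjusted p = 0.045). Leaving out single mice ended these 3 calls, for Rpl31 with any mouse, for Rps27 with any but mouse 2 and for Rpl29 with mouse 2, 8 or 9. Of the 15 canonical genes that did not pass, Rpl15 had the smallest value, 0.12 ± 0.14 (adjusted p = 0.49). Rps9 and Rpl22, which had high levels per kilobase, did not pass either. Rps9 had 0.24 ± 0.13 (adjusted p = 0.14), and Rpl22 had 0.38 ± 0.25 (adjusted p = 0.21).

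Members that serve as landmarks of ribosome function gave similar values. The P-stalk recruits elongation factors, and its scaffold Rplp0, often used as a reference gene in quantitative PCR, had 286 to 469 normalised reads in CHR and 458 to 841 in PAP (log2 fold change 0.67 ± 0.20, adjusted p = 0.0084). Its partner Rplp2 had 77.7 to 114 in CHR and 127 to 197 in PAP (0.51 ± 0.12, adjusted p = 0.0015). Rplp1, the remaining partner, had 358 to 892 in CHR and 608 to 926 in PAP and did not pass the test (0.44 ± 0.23, adjusted p = 0.12). The spread of Rplp1 in CHR was the largest of the canonical genes, with an SD of 0.50 on the log2 scale against a median of 0.14 over the 77.

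Rpl5 and Rpl11, which with 5S RNA bind and inhibit the p53 ligase Mdm2 when assembly is disturbed, rose in PAP by 0.47 ± 0.13 (adjusted p = 0.0052) and 0.41 ± 0.15 (adjusted p = 0.026). Rpl5 had 427 to 560 normalised reads in CHR, 562 to 950 in PAP and 575 to 951 in SCC, with both lesions above CHR. Rpl11 had 129 to 151 in CHR and 116 to 279 in PAP, and the papilloma of mouse 2 lay below the CHR range while the other 5 lay above it. Its call in PAP was lost without mouse 3, 7, 8 or 9 (adjusted p = 0.055 to 0.108). Among 40S proteins, Rps6, the substrate of S6 kinase, rose from 65.6 to 90.2 normalised reads in CHR to 127 to 168 in PAP without overlap (0.55 ± 0.13, adjusted p = 0.0016). Rpsa, also known as a laminin receptor, rose by 0.54 ± 0.13 (adjusted p = 0.0021), and Rps19, the gene most often mutated in Diamond-Blackfan anaemia, by 0.38 ± 0.12 (adjusted p = 0.015). The call of Rps19 was lost without mouse 3, 7 or 8 (adjusted p = 0.052 to 0.059). Rps27a, made as a fusion with ubiquitin, rose by 0.37 ± 0.11 (adjusted p = 0.01). Rps3, which also acts in the repair of oxidised DNA, had 5475, 6030 and 7893 normalised reads in CHR and 7975, 9044 and 12128 in PAP, which did not overlap (0.59 ± 0.16, adjusted p = 0.0056).

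The carcinomas gave the same direction against CHR with a wider spread. Against CHR, 50 of 82 members rose in SCC (background 15.1%) and 1 fell (background 21.4%, and 36.5% in either direction). This comparison shares its CHR samples with the one above. For the canonical genes the count was 48 of 77 higher and 0 lower, with 17 of 31 for the 40S and 31 of 46 for the 60S. By near-copies, it was 2 of the 10 genes with 0 or 1, 15 of the 26 with 2 to 9 and 31 of the 41 with 10 or more. The median log2 fold change was 0.38 over the 82 and -0.02 over all genes tested, and the median ratio of SCC to CHR was 1.46 over the 77. For 14 members, all 6 SCC lay above all 6 CHR (background 8.57%). The count depended on single mice. Without mouse 3 it fell to 29 called in all, and without mouse 9 to 33, whereas it was 51 with all mice. Without the carcinoma of mouse 10, which lacks the muscle reads of the other carcinomas, 37 were higher and 1 lower. The count over all genes fell as well, from 5306 to 4169 without mouse 3, 3909 without mouse 9 and 4874 without that carcinoma.

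Among the most abundant members, Rpl8 had 11728, 12880 and 14996 normalised reads in CHR, 16966, 20090 and 27584 in PAP and 14997, 17077 and 32296 in SCC. PAP lay above CHR without overlap, and the lowest SCC was level with the highest CHR. The log2 fold changes were 0.70 ± 0.17 in PAP (adjusted p = 0.0022) and 0.55 ± 0.17 in SCC (adjusted p = 0.015). Rpl4 rose in PAP by 0.70 ± 0.18 (adjusted p = 0.0042), and in SCC had 0.41 ± 0.18, which did not pass (adjusted p = 0.091). Rps3 had 0.41 ± 0.16 in SCC (adjusted p = 0.056). Among the smallest changes that passed in SCC were those of Rpl29, Rps3a1 and Rpl23a, with log2 fold changes of 0.26 ± 0.09, 0.29 ± 0.11 and 0.32 ± 0.12 (adjusted p = 0.041, 0.04 and 0.038). Each of these 3 lost its call under at least 6 of the 16 other settings.

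Between SCC and PAP, 1 member of 82 passed the test in limma, Rpl3l, which was higher in SCC. Of all genes, 4.99% were called higher and 0.592% lower, 5.58% together. None of the 77 canonical genes passed, and 0 of them reached an unadjusted p under 0.05 (background 22.6%). Under limma-voom on the recovered reads, 0 members were called, with 3 at an unadjusted p under 0.05. That fit called 0 of all 14521 genes, so its 0 calls say nothing particular about the members. The median ratio of SCC to PAP was 0.941 over the 77 genes, with a range of 0.809 to 1.13. The standard errors of single genes, 0.09 to 0.25 on the log2 scale for those named here, leave room for changes of that size. In the progression model, a mixed model with the mouse as a random effect, 66 of 82 members were classed as early (background 41.1%). Early means an unadjusted p under 0.05 both for SCC against CHR and for PAP against CHR, with the same sign, and no further change of that sign from PAP to SCC at that threshold. None was classed as late (background 2.20%) or stepwise (background 0.523%). Of the 66, 65 were higher in SCC than in CHR (background 18.4%), and the remaining one was Rpl3l.

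Libraries of a group differed in the level of the whole set. Mouse 10 had the highest median deviation in each of the 3 groups, 0.11 in CHR, 0.14 in PAP and 0.26 in SCC on the log2 scale over the 77 canonical genes. In the carcinoma of mouse 7 the median deviation was -0.25, the lowest of all 18 libraries. Compared with the CHR mean of each gene, 77 of 77 genes were higher in the papillomas of mice 8 and 10 and in the carcinoma of mouse 10, and 57 of 77 in the carcinoma of mouse 7. Among the 6 samples of CHR, this count ran from 7 in mouse 3 to 70 in mouse 10. For a canonical gene the SD within CHR, PAP and SCC had medians of 0.14, 0.20 and 0.26 on the log2 scale, below the 0.17, 0.30 and 0.31 of all genes. The deposited scale compresses low levels, and the median level was 209 normalised reads over the 77 against 492 over all genes. Genes of like level were not compared.

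The balance of the subunits shifted a little. The 40S genes took 44.3% to 46.2% of canonical reads in CHR, 39.7% to 44.6% in PAP and 41.9% to 46.1% in SCC. The share was lower in PAP than in CHR in 6 of 6 mice, with a mean difference of -2.97 percentage points, and the ranges overlapped slightly. Against CHR, SCC was the lower in 6 of 6 mice. With Rpl8 left out, PAP was still the lower in 6 of 6 mice (52.3% to 58.1% against 57.6% to 58.9% in CHR), whereas SCC was lower in 4 of 6 mice. The median log2 fold changes of the subunits were close, at 0.43 for the 40S and 0.46 for the 60S in PAP and at 0.37 and 0.40 in SCC.

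The paralogs did not follow the canonical genes as a group. Rpl3l, the form of Rpl3 made in skeletal and heart muscle, fell from 182, 233 and 256 normalised reads in CHR to 0.896, 2.77 and 18.7 in PAP, and to 5.37, 23.5 and 60.3 in SCC. Both lesions lay below CHR without overlap. In PAP the log2 fold change was -2.43 ± 0.17 (adjusted p = 3.4e-08) and the mean was 0.0259 times that of CHR. In SCC it was -1.78 ± 0.17 (adjusted p = 2.3e-06), with a mean 0.133 times that of CHR. Against PAP, Rpl3l was higher in SCC in 6 of 6 mice (0.65 ± 0.17, adjusted p = 0.04). This call was lost under 9 of the 16 other settings, among them leaving out mouse 2, 3, 7, 8 or 9 (adjusted p = 0.051 to 0.21 over the 9). Its canonical partner Rpl3 rose in PAP by 0.58 ± 0.14 (adjusted p = 0.0027) and in SCC by 0.54 ± 0.14 (adjusted p = 0.0073). Rpl3l reads were 37.0% to 60.9% of Rpl3 reads in CHR, 0.149% to 2.67% in PAP and 0.687% to 12.5% in SCC.

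Rpl39l, the form of Rpl39 best known from male germ cells, had 27.8, 59.3 and 62.5 normalised reads in CHR, 3.15, 12.3 and 49.1 in PAP and 6.27, 72.5 and 101 in SCC. It was lower in PAP than in CHR in 6 of 6 mice (-0.69 ± 0.23, adjusted p = 0.016), with ranges that overlapped, and it did not pass without mouse 3, 7 or 8 (adjusted p = 0.060 to 0.061). In SCC it was higher than in PAP in 6 of 6 mice, at 0.76 ± 0.23, without passing the test (adjusted p = 0.057). With the mouse number as a block it did pass (adjusted p = 0.015), so that 2 members were called in that comparison. Its partner Rpl39 rose in PAP by 0.38 ± 0.14 (adjusted p = 0.029), a call that was lost without mouse 7, 8 or 9 (adjusted p = 0.052 to 0.115).

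Rpl3l was low in the libraries in which the muscle markers were low. The 6 libraries with a muscle sum of at most 1505 had at most 8.39 normalised reads of Rpl3l, and the other 12 had at least 15.8. The papilloma with the most Rpl3l, 18.7 normalised reads, was that of mouse 2, which also had the highest muscle sum of the papillomas. The carcinoma with the least Rpl3l (5.37) and the least Rpl39l (6.27) was that of mouse 10, which had the lowest muscle sum of the carcinomas. Rpl39l did not keep to this order. The carcinomas of mice 2, 3, 7 and 9 had 70.5 to 101 normalised reads of it, above every CHR sample, at muscle sums of 87183 to 217344 against 421648 or more in CHR. The papilloma of mouse 9 had 49.1 at a muscle sum of 1505, and the CHR sample of mouse 10 had 27.8 at 473966. All 18 muscle markers fell in PAP (background 28.7%), with a median log2 fold change of -6.06, and 15 of 18 fell in SCC (background 21.4%). The part of muscle tissue in the values of Rpl3l and Rpl39l was not tested.

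**Figure D4:**
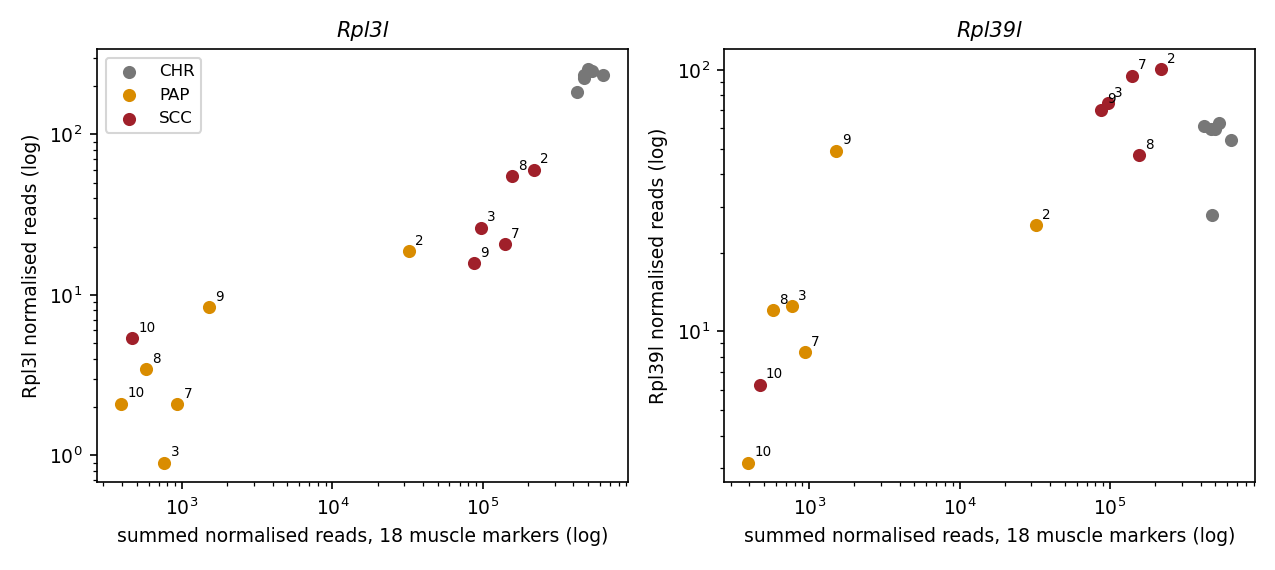
Rpl3l (left) and Rpl39l (right) in normalised reads against the summed normalised reads of 18 skeletal muscle markers, both on log scales. Each point is 1 of 18 libraries coloured by group, with mouse numbers beside PAP and SCC; CHR lies at the right and most PAP, with the SCC of mouse 10, at the lower left.

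The remaining paralogs rose or did not pass. Rpl22l1, whose message Rpl22 is known to repress, had 60.4, 78.4 and 104 normalised reads in CHR, 107, 136 and 171 in PAP and 85.2, 128 and 153 in SCC. PAP lay above CHR without overlap (0.50 ± 0.11, adjusted p = 0.0012), and SCC passed at 0.36 ± 0.11 (adjusted p = 0.017). Rpl22l1 reads were 3.48% to 6.37% of those of Rpl22 in CHR and 4.44% to 9.72% in PAP. Rpl7l1, a protein of early 60S assembly, rose from 744, 777 and 897 normalised reads in CHR to 1085, 1324 and 1792 in PAP without overlap (0.72 ± 0.13, adjusted p = 0.00015). It had 867 to 1345 in SCC, where the increase over CHR also passed (0.45 ± 0.13, adjusted p = 0.011). Rps27l, a target of p53, did not pass in either lesion (0.24 ± 0.18, adjusted p = 0.26 in PAP, and 0.11 ± 0.18, adjusted p = 0.67 in SCC). Rpl10l, Rpl26l1, Rpl34l and Rps4l were also looked for, but had no entry among the named genes.

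**Figure D5:**
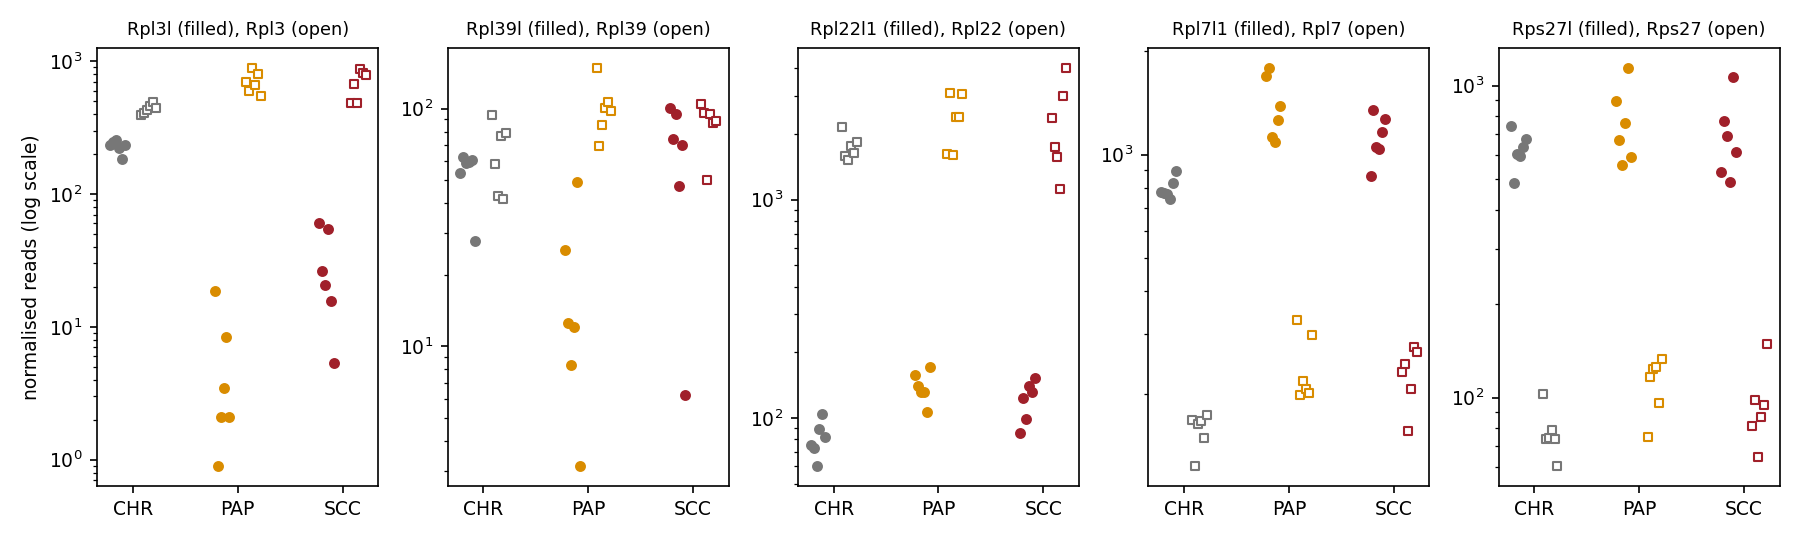
Normalised reads (log scale) of the 5 paralogs (filled circles) and their canonical partners (open squares) in the 6 libraries of each group. Rpl3l and Rpl39l fall in PAP while Rpl3 and Rpl39 rise, and of the other 3 paralogs Rpl22l1 and Rpl7l1 lie higher in all 6 PAP than in all 6 CHR.

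The starts of the genes were examined for sequence features that the symbol rule did not use. Promoters of RefSeq (build GRCm38.p6), which run from 250 bases before to 50 bases after each start, were found for 62 of the 82 genes. For a member the promoter nearest its GENCODE 5′ end was taken, and for other genes the first listed. The percentages of members and others thus rest on unlike choices of promoter. A run of at least 8 pyrimidines within 30 bases of the start, on the sense strand, was present in 32 of 62 members (51.6%) and in 21.6% of 10683 other genes. The letters CTTTCC on the sense strand in the same stretch were found in 16.1% of members and 2.67% of others, and CTTTTC in 8.06% and 1.58%. CTTTCC and CTTTTC can lie within the pyrimidine run. CCGGAAG, which holds the core bound by ETS factors and was searched on both strands of the whole promoter, was found in 40.3% and 16.1%. AAGATGG, the core of the YY1 motif, was found on either strand in 14.5% and 6.88%. A match describes the letters and does not show that a factor binds there.

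Starts are shown for the 4 largest canonical increases in PAP by log2 fold change, for the 2 abundant genes Rpl4 and Rps3, and for the 2 paralogs that fell. They are given as 15 bases on each side of the RefSeq start. Each is written 5′ to 3′ on the strand of the gene, and capitals mark its longest pyrimidine run of at least 5 bases.
Rpl41, chr10:128549154-128549183, minus strand: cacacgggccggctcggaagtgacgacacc
Rpl27, chr11:101442230-101442259, plus strand: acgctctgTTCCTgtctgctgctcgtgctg
Rpl13a, chr7:45128731-45128760, minus strand: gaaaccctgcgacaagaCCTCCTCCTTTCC
Rpl12, chr2:32961697-32961726, plus strand: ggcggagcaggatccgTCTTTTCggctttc
Rpl4, chr9:64173372-64173401, plus strand: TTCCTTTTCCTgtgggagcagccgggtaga
Rps3, chr7:99483695-99483724, minus strand: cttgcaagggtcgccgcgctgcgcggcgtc
Rpl3l, chr17:24727811-24727840, plus strand: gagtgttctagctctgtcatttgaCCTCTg
Rpl39l, chr16:10170213-10170242, plus strand: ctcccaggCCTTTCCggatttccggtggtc
The runs in these windows were 13 bases in Rpl13a, 11 in Rpl4, 7 in Rpl12 and Rpl39l and 5 in Rpl27 and Rpl3l. Rpl41 and Rps3 had none of 5 bases or more. The RefSeq starts do not all meet the 5′ ends of the genes in GENCODE. Those of Rpl12, Rpl41 and Rps3 lie 153, 137 and 29 bases inside the gene, and that of Rpl27 lies 53 bases before it. The printed windows reach 15 bases from the RefSeq start, so those of Rpl12, Rpl41, Rps3 and Rpl27 do not hold the GENCODE 5′ end. Of the 62 members, 31 had both positions within 30 bases of each other. A missing run in these windows, or in a member beyond that limit, says little about the start of the message.

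The changes of members with and without these features are given as a description, with no test of the differences. The 29 canonical genes with a pyrimidine run had a median ratio of PAP to CHR of 1.55, and the 28 without one had 1.54, and 24 and 22 of them passed in PAP. All canonical genes that passed in PAP rose, and 22.8% of all genes were called higher there. With CCGGAAG the median was 1.61 over 23 genes, of which 21 passed, and without it 1.50 over 34, of which 25 passed. The ranges were 1.12 to 1.90 and 1.16 to 1.98. A small nucleolar RNA gene lay within 30 of the 82 members (36.6%) and within 1.25% of other genes. Small nucleolar RNAs guide the modification of ribosomal RNA and are often processed from introns of ribosomal protein genes. The 30 host genes had a median ratio of PAP to CHR of 1.58, against 1.52 for the 47 canonical genes that hold none, and the ranges of both classes overlapped widely. By near-copies the median ratios of PAP to CHR were 1.53, 1.56 and 1.54 for the classes with 0 or 1, 2 to 9 and 10 or more, and 7 of 10, 20 of 26 and 35 of 41 genes passed. In SCC the median ratios to CHR were 1.36, 1.45 and 1.49 in the same order. There, 2 of 10, 15 of 26 and 31 of 41 passed, all of them higher in SCC, where 15.1% of all genes were called higher. Most genes with 0 or 1 near-copies thus did not pass in SCC. The differences between the classes were not tested.

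Other genes of translation moved in the same direction as the canonical set. Ribosomal proteins whose symbols fall outside the rule were measured for 4 of 8 listed, and all 4 rose in PAP, among them Fau and Gnb2l1, the latter also known as Rack1. Gnb2l1 had a mean of 19070 normalised reads in CHR and 27914 in PAP, a log2 fold change of 0.54 (adjusted p = 0.0032). Of 25 ribosome biogenesis genes, 23 rose in PAP and 21 in SCC and 0 fell, with median log2 fold changes of 0.77 and 0.69. They include Nop56 (1.12 in PAP, adjusted p = 3.4e-05), a core protein of the box C/D particles, and Dkc1 (1.16, adjusted p = 3.6e-05), the pseudouridine synthase. Myc, which drives ribosome production, rose by 1.15 in PAP (adjusted p = 8.4e-06) and by 0.85 in SCC (adjusted p = 0.00034).

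Of 51 genes listed by symbol with the translation initiation factors, 30 rose in PAP and 17 in SCC and 0 fell, with medians of 0.41 and 0.25. The list holds 8 regulators, namely the eIF2 kinases Eif2ak1 to Eif2ak4, the eIF4E-binding repressors Eif4ebp1 to Eif4ebp3, and Eif4enif1, which transports eIF4E. Among the 8, Eif4ebp1 (1.29, adjusted p = 0.00013) and Eif4enif1 (0.21, adjusted p = 0.023) rose in PAP. Without the 8, set apart after their values were seen, 28 of 43 rose in PAP and 16 in SCC, with medians of 0.44 and 0.29. Of 74 mitochondrial ribosomal proteins, which are made in the cytosol for a separate ribosome, 44 rose in PAP and 19 in SCC and 0 fell (medians 0.37 and 0.25). For each list here, the background is 22.8% called higher in PAP, 28.7% lower in PAP and 15.1% higher in SCC. Among 9 elongation factors 7 rose and 2 fell in PAP. Those that fell were Eef1a2 (-4.49, adjusted p = 1e-06), the isoform of muscle and neurons, and Eif5a2 (-0.56, adjusted p = 0.014). Eef2, the translocation factor, rose by 0.45 (adjusted p = 0.013). Of 7 other messages with a terminal oligopyrimidine tract 5 rose in PAP, with Pabpc1 at 1.07 (adjusted p = 6e-05), and 1 fell, Vim (-2.78, adjusted p = 1.3e-05), an intermediate filament gene of mesenchymal cells. Tpt1 did not pass (0.15, adjusted p = 0.51). No canonical ribosomal protein gene and none of the listed initiation genes, mitochondrial ribosomal proteins or ribosome biogenesis genes passed between SCC and PAP (background 5.58%).

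Markers of other cell types moved with the same comparison, in which 22.8% of all genes were called higher and 28.7% lower. Keratinocyte markers summed to 437460 to 861995 normalised reads in CHR and 637593 to 1176410 in PAP, and 6 of 9 rose and 1 fell. Dermal fibroblast markers were lower in PAP for 4 of 7, adipocyte markers for 7 of 8, myeloid markers for 6 of 7, T cell markers for 6 of 7 and sebaceous gland markers for 8 of 8. In the sum, sebaceous markers had 47047 to 152735 normalised reads in CHR and 896 to 6341 in PAP, and myeloid markers 31126 to 52157 and 1606 to 7946. The part of these shifts in cell composition in the ribosomal protein values was not tested. The share outside the muscle list given above only takes the reads of those markers out of the denominator.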

How the data were processed

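The authors aligned paired-end reads to mouse build mm10 (MOSAIK is the aligner their methods name for mRNA), counted them per gene with HTSeq, scaled the counts and stabilized their variance with DESeq2. What they deposited is a score, rounded to whole numbers on a linear rather than log scale, with 0 reads at 39. Strandedness, annotation release, the treatment of reads with several matches and software versions are not given in the sources used here. A scaling of batch medians is named in the methods, but the labels give no batches.

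The transformation was inverted with a zero level fitted at 39.12 and size factors of 0.834 to 1.18, and 98.5% of values (99.78% of those under 100) then gave whole reads. Entries without a symbol (21, at most 0.241% of reads) were left out. No library was a copy of another, with 2.24% of identical values in the closest of 153 pairs. Columns not mapped to a sample numbered 0.

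Main fits used limma 3.58.1 (R 4.3.3) on log2(value + 1), all 18 libraries and 1 coefficient per group, two-sided, with Benjamini-Hochberg adjustment over 14521 genes and a threshold of 0.05. Fold changes on this scale understate those of low genes. Fits were tested on simulated data, in which the share of false calls lay above the nominal threshold. Mixed models were checked with nlme 3.1.168, and near-copies were found with blastn 2.17.0. Motifs were matched by letters, for members in the promoter nearest the GENCODE 5′ end and for other genes in the first promoter listed.

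Samples were grouped and numbered by their titles. Numbers pair the samples because a number is a mouse. The correlation of deviations from the group means was 0.10 at the median for samples of a mouse (18 pairs, -0.24 to 0.51) and 0.00 for others. The members and gene lists were chosen with earlier results of these data known. Named were, in each comparison, the 5 largest and 5 smallest called fold changes, the paralogs with their partners, the 5 highest and 3 lowest members, and Rplp0, Rplp1, Rplp2, Rpl5, Rpl11, Rpsa, Rps19, Rps6, Rps3 and Rps27a. Rpl15, Rpl24, Rpl7a and the genes of the other lists were named after their values were seen. Single values of some genes that these rules name are not reported here. Alternatives were pseudocounts of 0 and 100, a minimum of 10 reads, limma-voom, scaling to equal totals or upper quartiles, the mouse as a block, fits of 2 groups and leaving out each mouse.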

Additional observations from a re-analysis of the deposited data

Results flagged for a closer look

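Of 111 groups of 6 samples examined (36 named genes and the share of reads, in 3 groups each), 6 held a sample that stood farther from the others than the 95% limit of Dixon's test allows, and chance flags about 1 group in 20. The papilloma of mouse 10 had 970 normalised reads of Rpl12, the highest of the 6, and the papilloma of mouse 7 had 395 of Rpsa, also the highest. The papilloma of mouse 2 had 222 of Rps19, the lowest of the 6. In the carcinomas, mouse 7 had the lowest Rpl39, with 50.2 normalised reads, and mouse 8 the lowest Rpl41, with 380. In CHR, mouse 10 had 27.8 normalised reads of Rpl39l against 53.8 to 62.5 in the other 5. The share of reads on the 82 genes held no such sample in any group.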

How the results depend on the processing

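The count of members that differed between PAP and CHR (66) stayed within 1.5 times under all 16 other settings, from 56 without mouse 7 or 8 to 72. Over all genes, 7474 were called in the main fit and 6423 to 7908 under the other settings. The count for SCC against CHR (51) ran from 29 to 47 when 1 mouse was left out, and from 38 to 62 under the other settings. Over all genes, the main fit called 5306, leaving out 1 mouse 3909 to 5047 and the other settings 4874 to 5738. Between SCC and PAP the count of members was 1. It became 0 with a pseudocount of 100, with limma-voom, with equal upper quartiles and in a fit of the 2 groups alone, and 2 with equal totals, with unadjusted p under 0.05 in 3, 3, 2, 2 and 2 members in that order. Over all genes, these settings called 383, 0, 703, 0 and 858 in that order, against 810 in the main fit. Leaving out 1 mouse gave 0 to 2 members, with 0 for each mouse but mouse 10. Over all genes, 0 were called without mouse 3, 7 or 8, 279 without mouse 2, 413 without mouse 9 and 2123 without mouse 10. The replicate block gave 2 (Rpl3l and Rpl39l), and in the other comparisons its counts of calls stayed within 1.5 times. Without the carcinoma of mouse 10, a setting chosen after seeing the data like limma-voom with the block, the count was 3, with Rpl24 lower in SCC (-0.37, adjusted p = 0.033). The count of early members was 66, and 56 to 66 without 1 mouse.

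The share of reads, SCC minus PAP, was -0.0125 percentage points and ran from -0.0413 to 0.00519 when 1 mouse was left out, changing sign without mouse 8. Fold changes on the log2 scale that changed sign were those of Rpl39l in SCC against CHR (0.07, to -0.10 with limma-voom, and from -0.024 to 0.20 when 1 mouse was left out) and Rps27l in the same comparison (0.11, and from -0.00902 to 0.21 when 1 mouse was left out), and none of these passed in either case. Among the other settings of the named genes, 88 lost a call, 29 gained one and 1064 kept direction and call. The causes were not tested.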
